A study of Mus musculus with 4 samples.

Results

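Cytochrome b5 and its reductases are represented here by 5 of the 16537 genes measured by RNA-seq in protrusions and cell bodies of the mouse melanoma line YUMM1.7. *Cyb5r3*, *Cyb5r1* and *Cyb5r4* encode reductases, and *Cyb5a* and *Cyb5b* encode the cytochromes b5 themselves. The set was chosen by the measured enrichment of *Cyb5r3* in these same libraries, and its relatives were then taken by family. All values of the 5 genes in this contrast are therefore given as a description, with no test. *Cyb5r3* mRNA was 3.31-fold higher in protrusions than in cell bodies, and the ratios of the mean levels of the other 4 genes lay between 0.926 and 1.29.

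YUMM1.7 is an established melanoma line whose engineered alleles include activated *Braf* and deactivated *Cdkn2a*, and all 4 libraries came from cells labelled wildtype. Cells grew overnight on fibronectin-coated porous membranes, and the cell bodies scraped from above and the protrusions left below were sequenced separately as total RNA without ribosomal RNA. Each fraction had 2 libraries, and each library pooled 6 inserts of 1 cell line. No drug, knockout or time course was part of the comparison.

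Cytochromes b5 are small heme proteins that carry electrons to enzymes in the membranes of the endoplasmic reticulum and of mitochondria. Cytochrome b5 reductases are flavoproteins that take these electrons from NADH. The system feeds fatty acid desaturation, sterol and ceramide synthesis and the reduction of methemoglobin, and inherited loss of human CYB5R3 causes methemoglobinemia.

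The libraries held between 25854947 and 30994908 reads assigned to genes, and between 14784 and 15123 genes were detected in each. Levels are in TPM, a length-normalised relative abundance whose values have the same sum in each library. It divides the reads of a gene by its length, and this rate by the sum of such rates over all genes of the library. TPM in a bulk fraction is a share of its RNA, so a higher value can mean more of the transcript or less of other RNAs. A larger share of cells with the transcript and more transcript per cell cannot be told apart either. Of 7 melanocyte markers, 3 were in the table, with summed levels between 5.52 and 6.56 TPM in the 4 libraries. Nearly all of this came from *Mitf*, which lay between 5.12 and 6.17 TPM, whereas *Tyr* was at or below 0.762 TPM and *Pmel* at or below 0.0696 TPM, with 0 in cell bodies 2. *Sox10*, *Tyrp1*, *Dct* and *Mlana* were not analysed here. The 20 liver marker genes summed to 1.78 and 3.48 TPM in the cell body libraries, 76.2 TPM in protrusions 1 and 4.24 TPM in protrusions 2. In protrusions 1, 17 of these 20 genes reached 1 TPM and 0 were at 0, against 9 and 10 at 0 in cell bodies 1 and 2 and 3 in protrusions 2. The part of this liver signal in the values below was not tested, and the fold of each gene within each replicate is given.

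*Cyb5r3* encodes the main NADH-dependent reductase of cytochrome b5, an enzyme anchored in membranes through a myristoylated N terminus. The gene lies on the minus strand at chr15:83153501-83172208 (mm10). Its mRNA was at 237 TPM in cell bodies 1 and 246 TPM in cell bodies 2. In protrusions 1 it was at 755 TPM and in protrusions 2 at 847 TPM. Both protrusion libraries stood well above both cell body libraries, and even the lowest protrusion value was 3.06-fold above the highest cell body value. Cell bodies had a mean of 242 ± 6.77 TPM (SD, n = 2) and protrusions one of 801 ± 64.5 TPM (SD, n = 2). On the log2(TPM + 0.5) scale the difference was 1.72 (SE 0.11, interval 1.45 to 2.00). Within replicates it was 1.67 and 1.78, each with an error from read counting of 0.020. This placed *Cyb5r3* at position 13 from the top among the 11400 genes with a mean of at least 1 TPM. By level it moved from rank 613 and 589 among all genes in the cell body libraries to rank 180 and 158 in protrusions. The values rested on 7420 and 6491 reads in cell bodies and on 20705 and 29278 reads in protrusions.

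**Figure D1:**
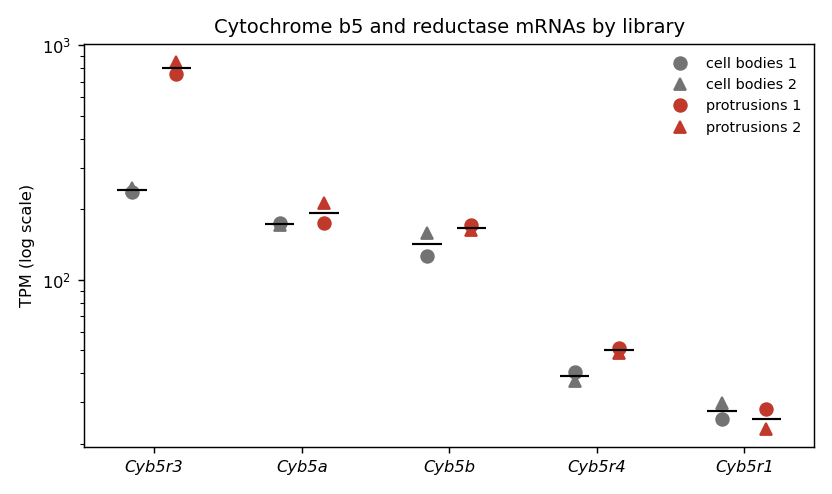
Levels of the 5 mRNAs in TPM on a log scale, with 1 point per library, grey for cell bodies, red for protrusions and a bar at the mean of each fraction. The *Cyb5r3* points sit at 237 and 246 TPM in cell bodies and at 755 and 847 TPM in protrusions, while the points of the other 4 genes stay close together between the fractions.

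The 3′ untranslated region (UTR) of *Cyb5r3* differed from those of its relatives in a way that the choice of the set did not use. GA-rich stretches in 3′ UTRs are a known feature of one class of protrusion-localized mRNAs. The *Cyb5r3* 3′ UTR, with 1056 bases, held an unbroken run of 106 purines, between bases 397 and 502 after the stop codon (chr15:83154048-83154153, minus strand). A single base separated it from another run of 63 purines, between bases 333 and 395. The longer run was made of 57 G and 49 A, and GA dinucleotides covered 83% of it. In *Cyb5b* the share was 83.3% in a run of only 12 bases, between bases 40 and 51, with 5 GA dinucleotides against 44 in *Cyb5r3*. Another *Cyb5b* run of 12 purines, between bases 1991 and 2002, had a smaller share. The *Cyb5b* value thus depends on which of its equally long runs is taken. In the longest runs of *Cyb5r1*, *Cyb5r4* and *Cyb5a*, also short, the share was 46.2%, 66.7% and 42.9%. The motif searched, on the transcript strand with overlaps allowed, was a purine, GAAG and then 2 purines. It matched 4 times in *Cyb5r3*, in 2 overlapping pairs, and all 4 matches lay inside the 106-base run. The 30 bases around each pair are shown first, and then 1 window from each relative that held a match, so that the run can be seen beside shorter ones. Capitals mark the motif matches, and the sequences are from GENCODE transcripts of GRCm38 (mm10).
Cyb5r3, chr15:83154113-83154142, minus strand: agaggagagAGAAGAGGAAGAGagagagag
Cyb5r3, chr15:83154054-83154083, minus strand: gagagagagAGAAGAGGAAGAGagagggag
Cyb5r1, chr1:134411331-134411360, plus strand: ctagagccagaaAGAAGGAagtgtgtgtac
Cyb5r4, chr9:87077622-87077651, plus strand: cccagagggtGGAAGAAGAGaactgactgt
Cyb5b, chr8:107185650-107185679, plus strand: atgctgggtAGAAGGGAAGAAcaaaggaac

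Both *Cyb5r3* windows were purine in all 30 bases, against 21 in the windows of *Cyb5r1* and *Cyb5r4* and 24 in that of *Cyb5b*. *Cyb5r1* held 2 matches in a 3′ UTR of 661 bases, *Cyb5r4* 2 matches in 892 bases and *Cyb5b* 4 matches in 3803 bases, and *Cyb5a* held 0 in 287 bases. A match by itself was common. It was present in 66.6% of the 5387 other tested 3′ UTRs at least as long as that of *Cyb5r3*, each cut to its first 1056 bases, and 5.61% had at least 4.

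The long run was less common than the motif. A purine run of at least 106 bases occurred in 0.167% of the same 5387 stretches, and in 24 of 10519 tested genes (0.228%) over whole 3′ UTRs, *Cyb5r3* included. The longest runs of *Cyb5r1*, *Cyb5r4*, *Cyb5a* and *Cyb5b* were 13, 12, 14 and 12 bases, close to the median of 12 bases over all genes. At equal length, runs as long as theirs were found in 28.5%, 48%, 10.3% and 92.8% of 3′ UTRs. The other 23 genes with runs at least as long as that of *Cyb5r3* had a median log2 fold change of 0.06, from -0.81 to 2.04, beside a median of -0.07 over all genes tested, and among the 24 only *Cplx2*, with a run of 264 bases, was above *Cyb5r3*. *Cplx2* was named after its values were seen. Of 28 genes with runs of at least 100 bases, 2 (7.14%) were at least 2-fold higher in protrusions, *Cplx2* and *Cyb5r3* itself. With runs under 20 bases, 68 of 9377 genes (0.725%) were. For runs of 20 to under 30, 30 to under 50 and 50 to under 100 bases the share was 1.2%, 0.375% and 1.04%. Median 3′ UTR length was 969 bases for runs under 20 bases and 3702 bases for runs of at least 100. Since *Cyb5r3* was chosen on this contrast, nothing is read from the 7.14%. Runs and lengths are properties of annotated transcripts, and which 3′ ends were used in YUMM1.7 cells was not measured.

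**Figure D2:**
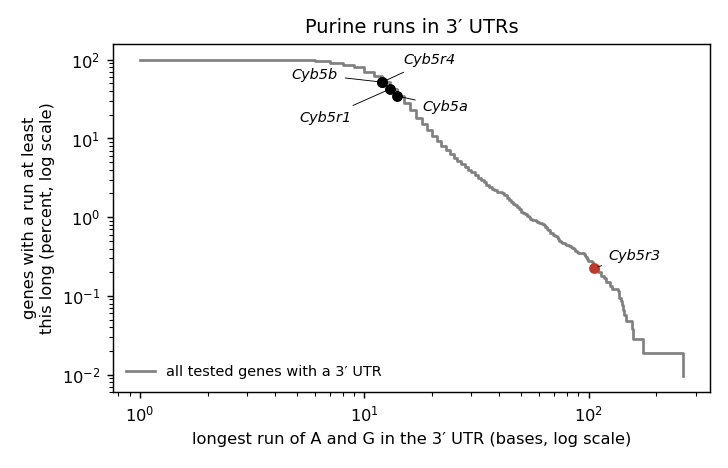
Share of the 10519 tested genes with an annotated 3′ UTR (percent, log scale) whose longest purine run reached a given length in bases (log scale), with the 5 genes marked as points. *Cyb5r3* sits at 106 bases and 0.228% of genes, whereas its relatives sit at 12 to 14 bases, where 34.6% to 52% of genes had runs as long.

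*Cyb5r1* encodes a membrane-bound reductase of the same family whose function is less well known. It lies at chr1:134405990-134411738 on the plus strand. Its mRNA was at 25.6 TPM in cell bodies 1, 29.7 TPM in cell bodies 2, 28.1 TPM in protrusions 1 and 23.2 TPM in protrusions 2. The fractions overlapped, with protrusions 1 higher than cell bodies 1 and protrusions 2 lower than cell bodies 2. The mean was 27.7 ± 2.95 TPM (SD, n = 2) for cell bodies against 25.6 ± 3.48 TPM (SD, n = 2) for protrusions, and the log2 difference was -0.11 (SE 0.16, interval -0.50 to 0.28). This difference became 0.03 without protrusions 2. The replicates gave 0.13 and -0.35, each with a counting error of 0.081, so they disagreed by more than counting error. *Cyb5r1* was the scarcest of the 5 mRNAs, with 616 to 641 reads in a library. Its interval leaves room for a rise of up to 0.28 and for a fall down to -0.50. The 1.72 of *Cyb5r3*, which was chosen on this contrast, lies far outside it.

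*Cyb5r4* encodes a soluble reductase that carries its own cytochrome b5 domain fused to the reductase domain. It lies at chr9:87022029-87077774 on the plus strand. Its mRNA was at 40.6 TPM in cell bodies 1, 37.2 TPM in cell bodies 2, 51.4 TPM in protrusions 1 and 48.8 TPM in protrusions 2. Both protrusion libraries lay above both cell body libraries, by a smaller step than for *Cyb5r3*. The means were 38.9 ± 2.44 TPM (SD, n = 2) and 50.1 ± 1.85 TPM (SD, n = 2), a 1.29-fold ratio and a log2 difference of 0.36 (SE 0.12, interval 0.06 to 0.66). The replicates gave 0.34 and 0.39, with counting errors of 0.049 and 0.051. This log2 difference exceeded that of 85.5% of the genes compared and became 0.58 when fold changes were corrected for transcript GC content.

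*Cyb5a*, which the deposited table lists under its older symbol *Cyb5*, encodes the cytochrome b5 of the endoplasmic reticulum, a protein held in the membrane by its C-terminal tail. The gene lies at chr18:84851414-84879863 on the plus strand. Its mRNA was at 174 TPM in cell bodies 1, 171 TPM in cell bodies 2, 175 TPM in protrusions 1 and 212 TPM in protrusions 2. Protrusions 2 stood above the other 3 libraries, which lay within 1 narrow band. The mean was 173 ± 2.42 TPM (SD, n = 2) for cell bodies against 193 ± 25.9 TPM (SD, n = 2) for protrusions, and the log2 difference was 0.16 (SE 0.13, interval -0.16 to 0.47). Replicate 1 gave 0.00 and replicate 2 gave 0.31, with counting errors of 0.047 and 0.045, so the replicates disagreed by more than counting error. The log2 difference was 0.02 without protrusions 2, 0.29 without protrusions 1 and 0.27 after correction for GC content.

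*Cyb5b* encodes the cytochrome b5 of the outer mitochondrial membrane. It lies at chr8:107150661-107187470 on the plus strand. Its mRNA was at 126 TPM in cell bodies 1, 158 TPM in cell bodies 2, 171 TPM in protrusions 1 and 163 TPM in protrusions 2. The fractions did not overlap, but the gap between cell bodies 2 and protrusions 2 was small beside that between the cell body libraries. The means were 142 ± 22.9 TPM (SD, n = 2) and 167 ± 6.15 TPM (SD, n = 2), with a log2 difference of 0.24 (SE 0.14, interval -0.11 to 0.59). The replicates gave 0.44 and 0.04, with counting errors of 0.021 and 0.020, so here too they disagreed by more than counting error. Leaving out 1 library at a time moved the difference between 0.08, without cell bodies 1, and 0.41, without cell bodies 2, and correction for GC content gave 0.42.

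All 5 mRNAs had a mean of at least 1 TPM. Both protrusion values lay above both cell body values for 4 of the 5 genes, below them for 0, and overlapped for *Cyb5r1*. Over all 11400 genes, 26.4% lay above and 37% lay below in this way. For *Cyb5a* and *Cyb5b* the ordering rested on a replicate difference of 0.00 and 0.04, respectively. Since *Cyb5r3* was picked on this contrast, nothing is read from the count of members.

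The order of levels was the same in every library, with *Cyb5r3* highest, followed by *Cyb5a*, *Cyb5b*, *Cyb5r4* and *Cyb5r1*. Neighbours in this order did not overlap within a fraction. *Cyb5a* and *Cyb5b* were the closest pair, and the gap between their nearest values, 171 against 158 TPM in cell bodies and 175 against 171 TPM in protrusions, was smaller than the spread between replicates of *Cyb5b* in cell bodies and of *Cyb5a* in protrusions. *Cyb5a* made up between 50.5% and 58.1% of the cytochrome b5 mRNA in the 4 libraries, with no separation of the fractions. Replicates of the same fraction differed by up to 0.33 on the log2 scale, the value of *Cyb5b* in cell bodies, where counting error was 0.022.

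The balance of the system, as ratios within each library, shifted toward *Cyb5r3* in protrusions. *Cyb5r3* made up 78.2% and 78.6% of the TPM of the 3 reductases in cell bodies and 90.5% and 92.2% in protrusions. The fractions were apart by far more than their replicates, with means of 78.4% ± 0.344 (SD, n = 2) and 91.3% ± 1.19 (SD, n = 2). *Cyb5r3* exceeded *Cyb5r1* by 9.27-fold and 8.29-fold in cell bodies and by 26.9-fold and 36.6-fold in protrusions. It exceeded *Cyb5r4* by 5.83-fold and 6.63-fold in cell bodies and by 14.7-fold and 17.3-fold in protrusions. Both ratios use TPM, which is per length, and both are a description that contains the choice of *Cyb5r3*.

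Reductase mRNA and cytochrome b5 mRNA were nearly equal in cell bodies and unequal in protrusions. The ratio of the summed TPM of the reductases to that of *Cyb5a* and *Cyb5b* was 1.01 and 0.952 in cell bodies and 2.41 and 2.45 in protrusions. The means were 0.98 ± 0.0407 (SD, n = 2) and 2.43 ± 0.0313 (SD, n = 2). With *Cyb5r3* left out, the ratio was 0.22 and 0.203 in cell bodies and 0.23 and 0.192 in protrusions, so the fractions overlapped. The summed TPM of all 5 mRNAs was 603 and 643 in cell bodies and 1181 and 1293 in protrusions. The sum of the cytochromes b5 was 300 and 329 TPM in cell bodies and 346 and 374 TPM in protrusions, and the rest of the increase lay almost wholly in *Cyb5r3*.

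**Figure D3:**
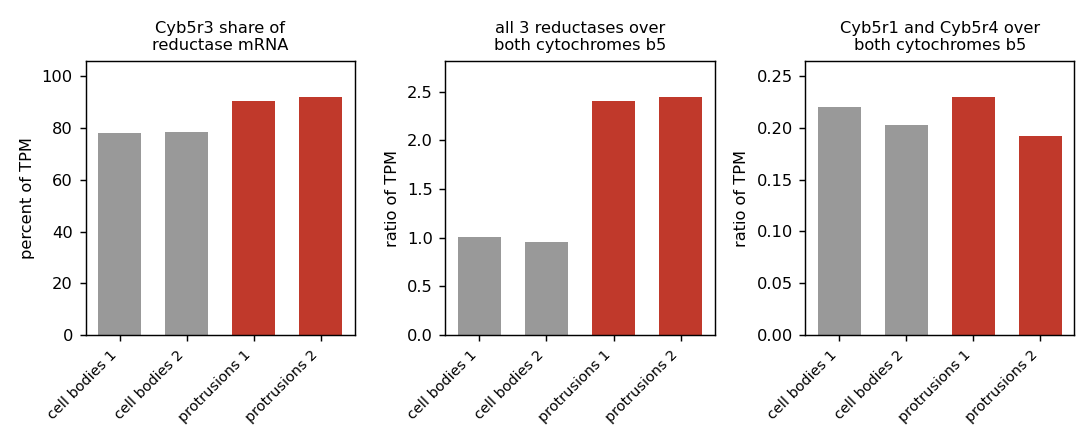
Balance of the cytochrome b5 system in each library, with 1 bar per library, grey for cell bodies and red for protrusions, as the percent of reductase TPM from *Cyb5r3*, the ratio of all 3 reductases to both cytochromes b5, and the same ratio without *Cyb5r3*. The left and middle panels separate the fractions (78.2% and 78.6% against 90.5% and 92.2%, and 1.01 and 0.952 against 2.41 and 2.45), and the right panel does not.

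By the likeness of its profile, the genes nearest to *Cyb5r3* were outside the cytochrome b5 family. Likeness was measured as the distance between log2(TPM + 0.5) values over the 4 libraries after each gene's mean was removed, among 10952 genes. The nearest were *Sh3pxd2a*, an invadopodium scaffold, *Rab13*, a small GTPase, *Mta1*, a chromatin regulator, *Eif3f*, a translation initiation subunit, and *Palld*, an actin-binding protein, at distances of 0.225 to 0.397. *Sh3pxd2a* was at 37.1 and 36.4 TPM in cell bodies and at 115 and 109 TPM in protrusions. *Rab13* was at 23.7 and 20.8 TPM in cell bodies and at 63.4 and 66.8 TPM in protrusions. Both had a log2 difference slightly below that of *Cyb5r3*, at 1.60 and 1.53. The relatives were farther away. This distance contains the protrusion enrichment by which *Cyb5r3* was chosen, so nothing is read from how far the relatives lay. *Cyb5r4* ranked 1488 at a distance of 1.379, *Cyb5b* ranked 2369 at 1.505, *Cyb5a* ranked 2948 at 1.572 and *Cyb5r1* ranked 6050 at 1.865.

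Of the genes around the 5 members, 40 of 47 listed were tested (46 were in the table). Calls were few in the main fit, which left out the pairing of the fractions by replicate. In that fit only *Bag6* rose and only *Degs1* fell in protrusions (limma, adjusted p under 0.05, two-sided). The background was 2.99% of all genes higher and 4.25% lower. With the replicate number as a block, 3 of the 40 were higher and 9 lower, against 8.08% and 13.3% of all genes. The median log2 fold change was -0.09 over the 40 genes and -0.07 over all genes.

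Among 6 other genes of the reductase and cytochrome b5 families, 0 rose and 0 fell, with a median of 0.06. *Pgrmc1*, a heme-binding membrane protein with a cytochrome b5-like domain, was at 211 and 223 TPM in cell bodies and at 160 and 125 TPM in protrusions. Its log2 difference of -0.62 did not pass (adjusted p = 0.0605 from limma) and passed with the block (adjusted p = 0.00949). It also passed with a minimum of 5 TPM (adjusted p = 0.043 from limma) and in a limma fit to reads (voom, adjusted p = 0.0435). When GC correction was added to the block it did not pass (difference -0.42, adjusted p = 0.0519). *Nenf*, a secreted factor with such a domain, was at a mean of 165 and 128 TPM (adjusted p = 0.118 from limma). *Cyb5rl*, a reductase-like gene named after its values were seen, was at a mean of 4.18 TPM in cell bodies and 5.36 TPM in protrusions, a log2 difference of 0.32 (adjusted p = 0.265 from limma). *Cyb5r2* was not analysed here.

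Of 10 tested lipid enzymes that draw electrons from cytochrome b5, 1 fell and 0 rose in protrusions, with a median log2 fold change of -0.50 and a range of -1.02 to 0.27, beside a median of -0.07 over all genes. *Degs1*, the desaturase that converts dihydroceramide to ceramide, was at 200 and 240 TPM in cell bodies and at 121 and 96.6 TPM in protrusions. Its log2 level fell by 1.02 (limma, adjusted p = 0.0355 without and 0.0015 with the block). The sterol enzymes *Msmo1*, *Sc5d* and *Cyp51*, named after their values were seen, had log2 differences of -0.99, -0.94 and -0.97 and did not pass (adjusted p = 0.108, 0.0936 and 0.121 from limma). With the block they passed, at adjusted p = 0.00142, 0.00283 and 0.00184. Without protrusions 2 their differences were -0.52, -0.53 and -0.49. The desaturases *Scd2* and *Fads2*, also named afterwards, had differences of -0.53 and -0.47 and adjusted p of 0.161 and 0.136 from limma, and 0.0492 and 0.0276 with the block. *Scd2* did not pass when GC correction was added to the block (limma, adjusted p = 0.0965), and its difference was -0.23 without protrusions 2 and -0.84 without protrusions 1, while that of *Fads2* was -0.29 without protrusions 2. Thus 1 of the 10 was lower without the block, beside 4.25% of all genes, and 6 with it, beside 13.3% of all genes, and 0 were higher in either fit. *Scd1*, another stearoyl-CoA desaturase, also named after its values were seen, was at 108 and 136 TPM in cell bodies and at 161 and 132 TPM in protrusions, and the fractions overlapped.

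The remaining lists held 1 call without the block. Among 7 tested genes of the machinery that inserts tail-anchored proteins, the class to which both cytochromes b5 belong, *Bag6*, a chaperone of the pathway, was at 28.4 and 30.1 TPM in cell bodies and at 58 and 57.7 TPM in protrusions. Its log2 level rose by 0.97 (limma, adjusted p = 0.0342 without and 0.00135 with the block). The insertion receptor genes *Caml* and *Wrb*, named after their values were seen, had differences of -0.79 and -0.58 that did not pass (adjusted p = 0.0605 and 0.0784 from limma) and passed with the block (0.01 and 0.0203). The list's median was 0.17.

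Among 12 other NAD(P)H-dependent reductases 0 passed, where 2.99% of all genes were higher and 4.25% lower, and with the block 2 were higher, where 8.08% of all genes were. These were *Txnrd1*, thioredoxin reductase, at 144 and 230 TPM on average (adjusted p = 0.0654 from limma, 0.00401 with the block), and *Gsr*, glutathione reductase, at 82.6 and 125 TPM (adjusted p = 0.0662 from limma, 0.0119 with the block), the latter named after its values were seen. Their log2 differences, 0.66 and 0.58, were the highest of the list. *Nqo1*, a quinone reductase, was at 312 and 340 TPM (adjusted p = 0.861 from limma). The list's median was -0.10. *Nmt1* and *Nmt2*, the enzymes that attach myristate to proteins such as CYB5R3, had log2 differences of -0.07 and -0.10 (adjusted p = 0.736 and 0.693 from limma), and 0 of the 4 tested genes of N-myristoylation passed in either fit, with a median of -0.09. *Marc2*, a mitochondrial amidoxime reducing component supplied by CYB5B, was at 40.3 and 36.1 TPM (adjusted p = 0.415 from limma), and its partner *Marc1*, at or below 0.208 TPM in every library, was not tested.

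**Figure D4:**
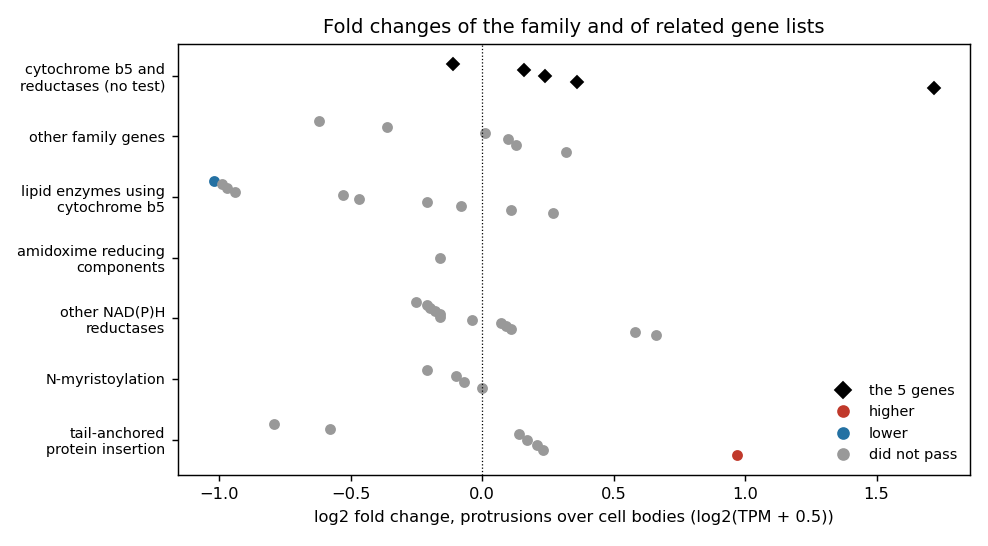
Log2 fold changes, protrusions over cell bodies on the log2(TPM + 0.5) scale, of the 5 genes (black diamonds, no test) and of the tested genes of 6 lists (circles, red for higher and blue for lower at an adjusted p under 0.05 from limma without the block, grey for genes that did not pass). *Cyb5r3* stands alone at 1.72, *Bag6* is the red point at 0.97 and *Degs1* the blue point at -1.02.

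*Degs1* and *Bag6* lost their calls when any 1 library was left out, with adjusted p between 0.0528 and 0.163 for *Degs1* and between 0.059 and 0.162 for *Bag6* (limma), and kept their direction. A lone library in a fraction was then assumed to vary like the other fraction.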

How the data were processed

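RNA-seq of YUMM1.7 protrusions and cell bodies was analysed from the table of 16537 genes that the authors deposited. The authors computed its TPM values from single-end, strand-specific reads aligned to mm10. The paper's methods name TopHat and edgeR, and the submitters' processing notes name STAR, featureCounts and edgeR. The authors' log2 fold change and p-value of the same contrast and the likelihood ratio score were deposited too and were not used. The deposited log2 values also hold the mean log2 CPM, which set the scale for recovering reads. Samples were grouped by the labels' fraction and replicate. The members and lists were chosen with earlier results of these data known.

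A linear model with a trended prior (limma 3.58.1 in R 4.3.3) was run on log2(TPM + 0.5) of the 11400 genes with a mean of at least 1 TPM, with Benjamini-Hochberg adjustment of the p-values and a threshold of 0.05. A count model was planned only for a table of counts. On this scale the folds of low genes are understated. Intervals are 95% confidence intervals from the fit, and the 5 genes have no test. With 2 libraries a fraction, p-values measure the spread between these libraries. The fractions of a replicate came from the same inserts, the study's supplementary data call them paired, and their deviations from the fraction means correlated at 0.447 over 11400 genes, so the replicate number was taken to pair them.

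TPM ratios of a gene between libraries gave whole reads within 0.001 reads for all 16537 genes, and counting errors rest on these. Fit and recovery were tested on simulated data. 3′ UTRs, for 10519 tested genes, came from each gene's longest protein-coding GENCODE transcript with a RefSeq match. Where no transcript had a match, the longest protein-coding one was used. Symbols matched for 15710 genes directly and for 642 by a RefSeq synonym. Deposited starts count from 0 and are printed from 1. Named genes are the 5, the 5 nearest profiles to *Cyb5r3* (microRNA and snoRNA genes left out) and, from each list, the genes that passed or, where none did, the 2 with the highest mean TPM. Alternatives were the pseudocount, the TPM minimum, the replicate block, centring, GC correction, voom on recovered reads and leaving out each library.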

Additional observations from a re-analysis of the deposited data

How the results depend on the processing

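Fold changes of the 5 genes kept their direction under every alternative run, except that *Cyb5r1* lay between -0.25 and 0.03 when 1 library was left out. Correcting for transcript GC content, alone or with the block, moved *Cyb5r3* to 1.57, *Cyb5r4* to 0.58, *Cyb5a* to 0.27 and *Cyb5b* to 0.42. With a library left out the log2 differences ranged from 1.64 to 1.81 for *Cyb5r3*, 0.30 to 0.42 for *Cyb5r4*, 0.02 to 0.29 for *Cyb5a* and 0.08 to 0.41 for *Cyb5b*. With recovered reads, not divided by length, *Cyb5r3* made up 76.9% of the reductases in cell bodies, and the ratio of reductases to cytochromes b5 was 0.869 and 2.09 in the fractions. The counts of called genes depended on the setting, and the cause was not tested. Against 341 higher and 485 lower genes, the replicate block gave 921 and 1513, the block with GC correction 1245 and 1447, voom on recovered reads 775 and 889, a minimum of 5 TPM 801 lower, and no minimum 0 and 0 (limma), where 3630 genes had an unadjusted p under 0.05. Leaving out 1 library gave 0 to 14 higher and 0 to 144 lower, with 1899 to 3157 genes at an unadjusted p under 0.05 and both counts above 0 only without protrusions 1. Centring on the median of all genes, -0.067, gave 448 higher and 365 lower, so 55.1% of calls were higher in place of 41.3%. Among the 40 listed genes, the block gave 3 higher and 9 lower, the block with GC correction 3 and 8, voom 3 and 3, a minimum of 5 TPM 3 and 3, GC correction 2 lower, no minimum 0 and 0, with 12 at an unadjusted p under 0.05, and leaving out a library 0 to 0 in both directions, with 7 to 12. Voom and the minimum of 5 TPM each added *Txnrd1* and *Gsr* as higher and *Pgrmc1* and *Caml* as lower. The block left the log2 differences of the 5 genes in place, and calls it changed stand beside the genes named. With 2 libraries a fraction, differences such as those of *Cyb5a*, *Cyb5b* and *Cyb5r1* lay within the spread between libraries. Depth was 616 reads or more per gene and library. Counting error was largest for *Cyb5r1*, at 0.081 in each replicate, but its replicate differences of 0.13 and -0.35 were apart by more than that.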
